A study of Mus musculus with 2 samples.

Results

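The miR-99/100, let-7 and miR-125 clusters are 3 paralogous groups of miRNA genes, each with 1 member of each family. They comprise mmu-mir-99a, mmu-let-7c-1 and mmu-mir-125b-2 on chromosome 16 (the miR-99a cluster), mmu-mir-99b, mmu-let-7e and mmu-mir-125a on chromosome 17 (the miR-99b cluster), and mmu-mir-100, mmu-let-7a-2 and mmu-mir-125b-1 on chromosome 9 (the miR-100 cluster), called miR-99a, let-7c-1 and so on below. The 9 members were taken by the names of their precursors, the hairpins from which mature miRNAs are cut, and all 9 were found among the 1187 precursors listed. Small RNA had been sequenced from mouse hindlimb muscle 1 day after the femoral artery had been removed surgically to make the limb ischemic. The hypercholesterolemic library (HC) came from ApoE-/- mice, fed a high-fat diet according to the series' design text, and the normocholesterolemic library (NC) came from C57Bl/6 control mice. Both libraries were from operated limbs. ApoE encodes a lipoprotein ligand, and its loss raises plasma cholesterol. Genotype and diet differed together between the libraries and cannot be told apart. The diet of the NC mice, the number of animals behind a library and their ages are not stated in the sources used here. Each group held 1 library, so no p-value was computed, and every interval below is a 95% interval of counting error only.

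Clusters of this kind are among the oldest miRNA arrangements in animals. In Caenorhabditis elegans, lin-4 (the relative of miR-125) and let-7 time developmental transitions. In mammals, let-7 favours differentiation and represses growth regulators such as Hmga2 and Lin28, whose protein in turn blocks the maturation of let-7. The miR-99/100 family is known to repress Mtor, the kinase of a central growth pathway, and in mouse hindlimb ischemia miR-100 has been described as a brake on vessel growth through this target. miR-125b represses Igf2 and slows the differentiation of mouse myoblasts.

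The mature 5p products are shown because families share a seed, the stretch from base 2 to base 8 that pairs with targets, while single bases outside it decide which precursor a read is assigned to. The sequences are RefSeq's (GRCm38.p6), 5′ to 3′, with the seed in capitals, and at least 1 entry matched each of the 9 precursors. The let-7a-5p entry is the one listed under let-7a-1, and the same letters stand in the let-7a-2 hairpin.
miR-99a-5p: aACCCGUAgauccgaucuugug
miR-100-5p: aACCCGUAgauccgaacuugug
miR-99b-5p: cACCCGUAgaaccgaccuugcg
let-7c-5p: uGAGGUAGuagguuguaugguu
let-7a-5p: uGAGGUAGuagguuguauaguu
let-7e-5p: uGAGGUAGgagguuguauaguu
miR-125b-5p: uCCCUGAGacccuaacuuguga
miR-125a-5p: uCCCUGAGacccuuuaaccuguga

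Counted from the 5′ end of the product, miR-99a-5p and miR-100-5p differ by U16A alone, whereas miR-99b-5p differs from miR-99a-5p at 4 positions (A1C, U11A, U16C and U21C). let-7a-5p differs from let-7c-5p by A19G and from let-7e-5p by U9G. miR-125a-5p (24 bases) and miR-125b-5p (22 bases) share their first 13 bases. How many mismatches the authors' alignment allowed is not stated in the sources used here, so the division of reads between products that differ by 1 base is less certain than that between families.

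Both let-7c-1 and let-7a-2 have a second genomic copy with the same 5p product, and miR-125b-5p is made from members of 2 of the clusters. Their precursors can be told apart only by 3p products and hairpin flanks. Those of miR-125b are shown for this reason, with bases 2 to 8 in capitals.
miR-125b-1-3p: aCGGGUUAggcucuugggagcu
miR-125b-2-3p: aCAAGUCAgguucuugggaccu
They differ at 5 positions. The let-7 copies had nearly equal counts, and those of miR-125b were further apart. let-7a-2 had 89048 counts in HC and 112641 in NC, and let-7a-1 on chromosome 13 had 89982 in HC and 113742 in NC. let-7c-1 had 95976 counts in HC and 107811 in NC, and let-7c-2 on chromosome 15 had 97267 in HC and 109579 in NC. miR-125b-2 exceeded miR-125b-1 by 14.0% in HC and by 13.3% in NC. Levels of let-7c-1, let-7a-2, miR-125b-1 and miR-125b-2 are therefore uncertain as measures of 1 locus. This limit does not touch miR-99a, miR-100 and the miR-99b cluster, whose 5p products are each listed for 1 precursor. The limit for products that differ by 1 base still holds for miR-99a, miR-100 and let-7e.

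In the mm10 coordinates of the files, miR-99a (16, 77598936 to 77599000), let-7c-1 (77599657 to 77599750) and miR-125b-2 (77646273 to 77646343) lie on the plus strand in introns of the long noncoding gene Mir99ahg, with 656 bases between the first pair and 46522 between the second. miR-99b (17, 17830188 to 17830257), let-7e (17830352 to 17830444) and miR-125a (17830812 to 17830879) are compact, with gaps of 94 and 367 bases, inside Spaca6, a gene of sperm-egg fusion. GENCODE M21 places miR-99b and let-7e in its introns and has miR-125a overlapping an exon. miR-100 (9, 41531425 to 41531504), let-7a-2 (41536716 to 41536811) and miR-125b-1 (41581926 to 41582002) lie in introns of 3110039I08Rik, a noncoding gene that RefSeq names Mir100hg, with gaps of 5211 and 45114 bases. A further miRNA entry, Gm25927, spans let-7e on the opposite strand, and the lincRNA Gm48742 overlaps miR-100 on the opposite strand. The protein-coding Gm11146, also on the opposite strand, holds miR-99a and let-7c-1 in introns. On the same strand, exons of Gm28119 and C130023A14Rik overlap miR-125b-1 and miR-125b-2 respectively. The lincRNA Gm49317, on the same strand, holds the miR-100 cluster in introns. Whether the counting used strand is not stated in the sources used here.

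The libraries held 31198050 counts over all precursors in HC and 43848576 in NC. The 9 members together took 1.15% of them in HC and 1.02% in NC, with the counts of copies taken as listed. Levels below are in CPM, counts brought to a library of 1000000 counts after scaling by the trimmed mean of M-values (TMM). The 5 skeletal muscle markers (miR-1a-1, miR-133a-1, miR-206, miR-486a and miR-499) summed to 208577 CPM in HC and 254077 CPM in NC, with 2 of 5 higher in HC (miR-1a-1 and miR-499) and 3 lower. The lower sum in HC rested on miR-486a, at 141556 CPM in HC and 187306 CPM in NC. This miRNA makes up most of the sum in both libraries, so the sum need not track muscle alone. Erythrocyte markers (miR-144 and miR-451a) summed to 609 CPM in HC and 468 CPM in NC, with 2 of 2 higher in HC by intervals that exclude equality. These 2 precursors lie 99 bases apart and need not be separate observations. Leukocyte markers summed to 2266 CPM in HC and 2259 CPM in NC (1 of 3 higher in HC, 1 lower), and the endothelial miR-126a stood at 11407 CPM in HC and 11144 CPM in NC. Smooth muscle markers summed to 69344 CPM in HC and 76571 CPM in NC (2 of 2 lower in HC), and fibroblast markers to 2462 CPM in HC and 2250 CPM in NC (1 of 2 higher). Epithelial and skin markers summed to 79.4 CPM in HC and 101.5 CPM in NC (3 of 3 lower). No marker was at 0. Their part in the results below was not tested, and a change in the number of cells of a type cannot be told apart from a change in miRNA per cell.

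As listed, the let-7 member was the most abundant of its cluster in the miR-99a and miR-100 clusters and the least abundant in the miR-99b cluster. let-7c-1 stood at 2937 CPM in HC and 2576 CPM in NC, and let-7a-2 at 2725 CPM in HC and 2691 CPM in NC. let-7e had 4874 counts in HC and 6882 in NC, or 149 CPM in HC and 164 CPM in NC, the lowest level among the members in both libraries. Within the miR-99b cluster the count of let-7e was thus far below those of its neighbours, although only 94 bases separate it from miR-99b. Whether different miRNAs were captured equally in a library was not tested. Levels, orders and cluster shares therefore compare counts, which need not equal abundance in the tissue. miR-99b exceeded let-7e 12.3-fold in HC and 11.7-fold in NC, and miR-125a exceeded it 5.13-fold in HC and 5.31-fold in NC.

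Among the miR-99/100 family, miR-99b was the highest, with 59973 counts (1835 CPM) in HC and 80450 counts (1922 CPM) in NC. miR-100 had 24153 counts (739 CPM) in HC and 24543 counts (586 CPM) in NC. miR-99a had 15657 counts (479 CPM) in HC and 19168 counts (458 CPM) in NC. The order miR-99b, miR-100, miR-99a was the same in both libraries.

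The miR-125 members lay closer together. miR-125a had 25021 counts (766 CPM) in HC and 36511 counts (872 CPM) in NC. miR-125b-2 had 23335 counts (714 CPM) in HC and 30422 counts (727 CPM) in NC, and miR-125b-1 had 20471 counts (626 CPM) in HC and 26861 counts (642 CPM) in NC. Because a 5p read of miR-125b can come from either locus, the 2 loci cannot be told apart by such reads.

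From high to low, the order in HC was let-7c-1, let-7a-2, miR-99b, miR-125a, miR-100, miR-125b-2, miR-125b-1, miR-99a and let-7e. In NC, let-7a-2 stood above let-7c-1, and miR-100 stood below both miR-125b precursors. Counting intervals of neighbours in these orders did not overlap, but the spread between animals is unknown. The order also rests on how copies are counted. With counts of the copied precursors halved, as if each locus gave an equal part, miR-99b (1835 CPM in HC, 1922 CPM in NC) came first, ahead of let-7c-1 (1468 CPM in HC, 1288 CPM in NC) and let-7a-2 (1362 CPM in HC, 1346 CPM in NC), and miR-99a passed both miR-125b precursors. let-7e was lowest under each treatment. A small-RNA read usually spans a whole mature miRNA, so levels were compared without length. Per base of hairpin, let-7c-1 was still highest in HC (31.2 CPM per base) and let-7e lowest (1.60). miR-125b-2 (10.1) then passed miR-100 (9.24) in HC, and in NC miR-99b (27.5) passed let-7c-1 (27.4).

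**Figure D1:**
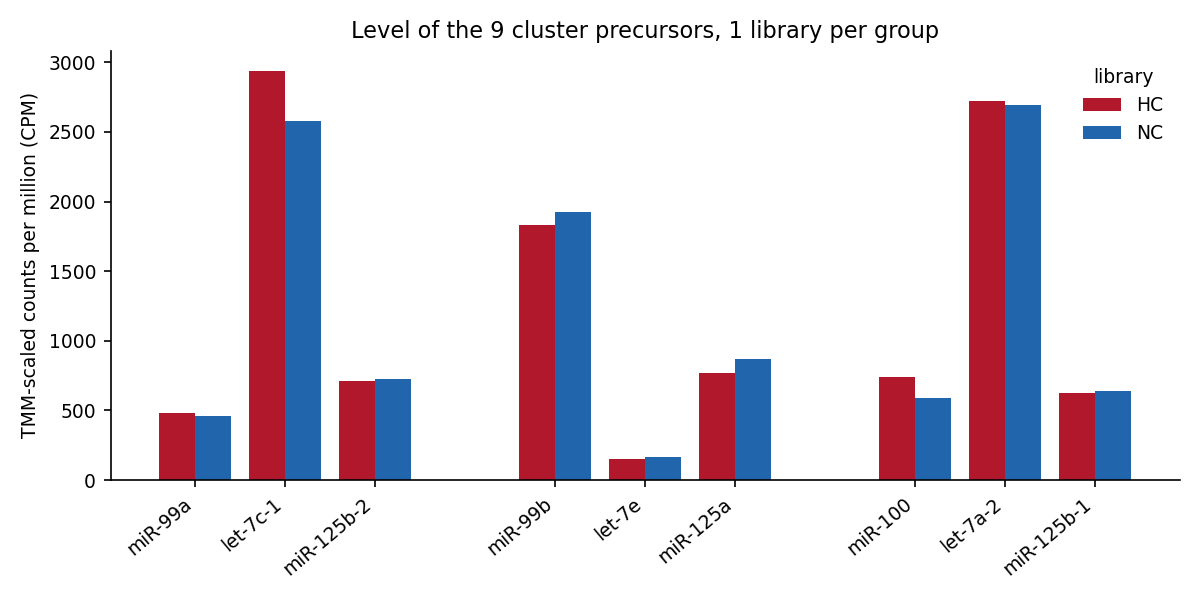
Level of each member in TMM-scaled CPM (y axis), copies counted as listed, in HC (red) and NC (blue), with precursors grouped by cluster in genomic order and 1 library per bar. let-7c-1 and let-7a-2 stand between 2576 and 2937 CPM, and let-7e at 149 CPM in HC and 164 CPM in NC.

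The HC and NC libraries had similar levels of these miRNAs, and whether this holds between animals is unknown. None of the 9 members reached a 2-fold difference, a size reached by 2.25% of the 222 precursors that averaged 10 CPM or more and are called compared here. miR-100 had the largest difference among the members and was 1.26-fold higher in HC (counting interval 1.24 to 1.28), a log2 fold of 0.33. It was the only member with a log2 fold of at least 0.32, a smaller size reached by 11.3% of compared precursors, and no member was at or below -0.32, where 11.3% of compared precursors lay. That count was 0 with the authors' denominators, where miR-100 stood at 0.22, and 2 with plain totals, where let-7c-1 also passed. With 1 of 9 members past it, the share of members higher by this size was close to the background. The log2 folds (HC over NC) of the members had a median of -0.026, beside -0.00074 over all compared precursors, and the central 90% of those ran from -0.47 to 0.47, a range that held all 9 members.

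In the miR-99/100 family, the log2 fold was 0.33 (0.31 to 0.36) for miR-100, 0.065 (0.034 to 0.096) for miR-99a and -0.067 (-0.082 to -0.052) for miR-99b. Within the let-7 members it was 0.19 (0.18 to 0.20) for let-7c-1, 0.018 (0.0051 to 0.031) for let-7a-2 and -0.14 (-0.19 to -0.088) for let-7e. The miR-125 members lay at -0.026 (-0.050 to -0.0011) for miR-125b-2, -0.035 (-0.061 to -0.0087) for miR-125b-1 and -0.19 (-0.21 to -0.17) for miR-125a. In each family the chromosome 17 paralog thus had the lowest fold of the family. By interval, 4 members lay above equality and 5 below, against 39.6% and 43.7% of compared precursors. Plain totals moved every log2 fold by 0.13 and the authors' denominators by -0.11. Across the 6 scalings compared, 4 of 9 members kept the sign of their log2 fold, namely miR-100 and let-7c-1 above 0 and let-7e and miR-125a below it. For let-7e this rests on the point value, since with plain totals it stood at -0.0066 with an interval of -0.060 to 0.047.

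**Figure D2:**
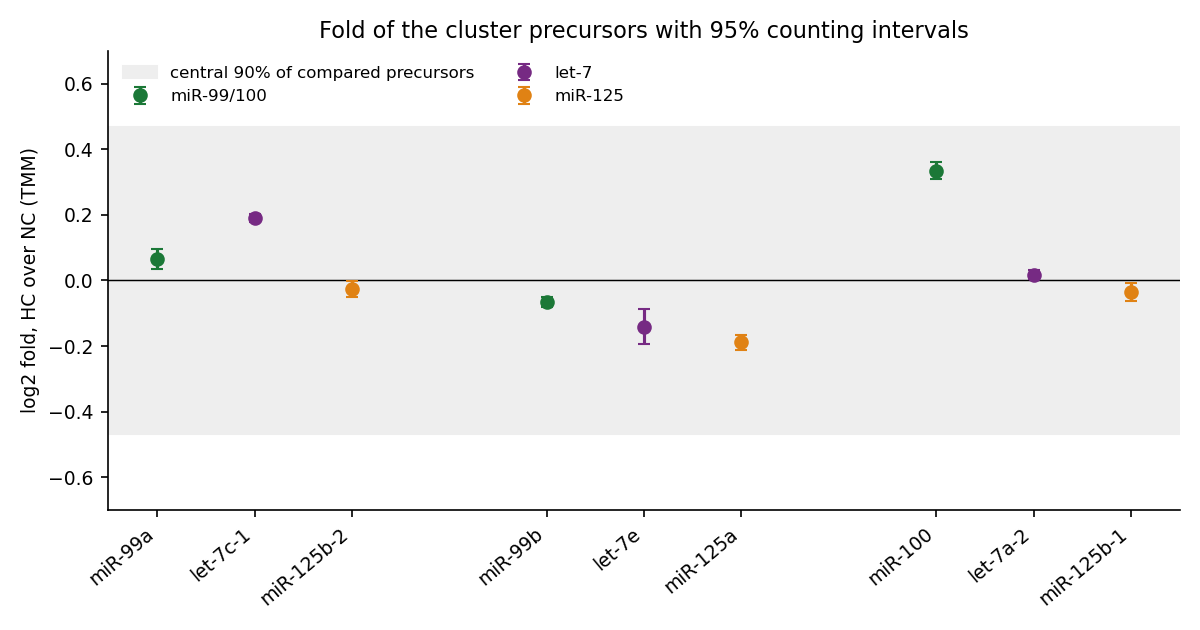
Log2 fold of HC over NC (y axis, TMM scaling) for each member, coloured by family, with 95% counting intervals as bars and the central 90% of the 222 compared precursors shaded. miR-100 is highest at 0.33 and miR-125a lowest at -0.19, and all 9 points fall inside the shaded range.

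The make-up of each cluster does not depend on how the libraries are scaled, but that of the miR-99a and miR-100 clusters depends on how copies are counted. In the miR-100 cluster, miR-100 took 18.1% of counts in HC (exact binomial interval 17.9 to 18.3%) and 15.0% in NC (14.8 to 15.1%). let-7a-2 took 66.6% in HC and 68.7% in NC, and miR-125b-1 took 15.3% in HC and 16.4% in NC. The share of miR-100 was 9.78% in HC and 7.96% in NC with copies summed, and 30.6% in HC and 26.0% in NC with copies halved, so its size was not fixed. That it was higher in HC each time follows from miR-100 having the highest log2 fold of its cluster. Neither treatment changes that order of folds, so this is no separate support. As listed, miR-100 had 1.18 times the counts of miR-125b-1 in HC and 0.914 times in NC. With copies summed it lay below miR-125b-1 in both libraries, and with copies halved above it in both. In the miR-99a cluster, let-7c-1 took 71.1% in HC and 68.5% in NC, miR-125b-2 took 17.3% in HC and 19.3% in NC, and miR-99a took 11.6% in HC and 12.2% in NC. The share of miR-99a was 6.20% in HC and 6.52% in NC with copies summed, and 20.8% in HC and 21.7% in NC with copies halved. The miR-99b cluster, which is free of shared copies, was led by miR-99b, with 66.7% in HC and 65.0% in NC. miR-125a took 27.8% in HC and 29.5% in NC, and let-7e took 5.42% in HC and 5.56% in NC with overlapping intervals.

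**Figure D3:**
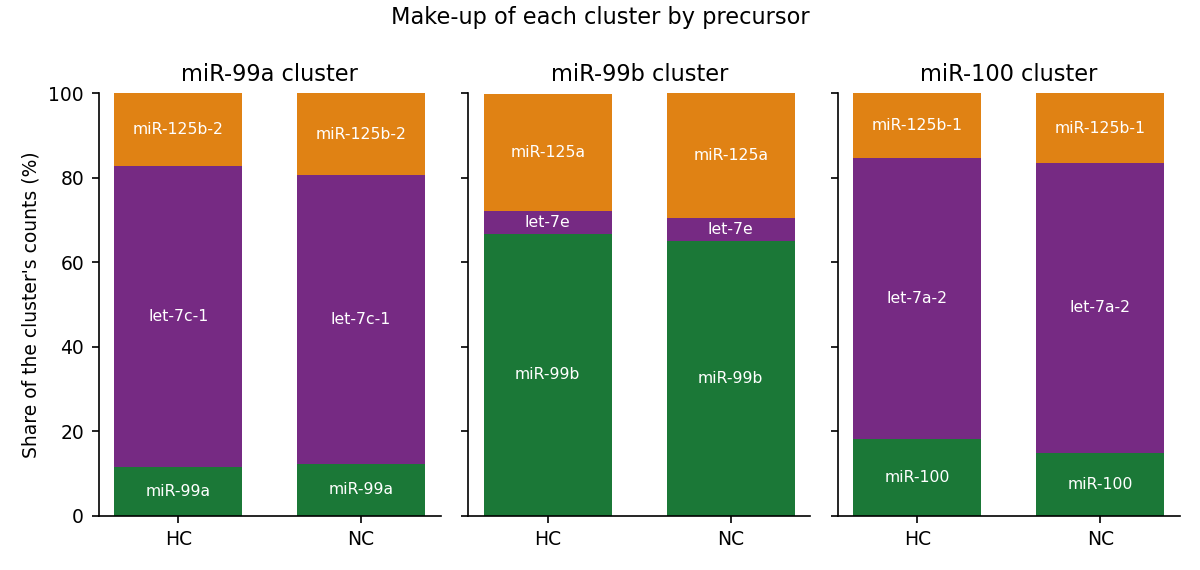
Share of each cluster's counts (y axis, percent) taken by its miR-99/100 (green), let-7 (purple) and miR-125 (orange) precursor, with HC left and NC right in each panel and copies counted as listed. miR-100 takes 18.1% of its cluster in HC and 15.0% in NC, and miR-99b takes the most of its cluster in both.

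Between cluster mates, the miR-125 member had the lowest log2 fold in all 3 clusters. Its difference from the miR-99/100 mate was -0.37 (-0.41 to -0.33) for miR-125b-1 and miR-100, -0.12 (-0.15 to -0.094) for miR-125a and miR-99b, and -0.091 (-0.13 to -0.052) for miR-125b-2 and miR-99a. The first and the last of these share the miR-125b product and are not separate observations of it. Against the let-7 mate the difference was -0.21 (-0.24 to -0.19) for miR-125b-2 and let-7c-1 and -0.053 (-0.082 to -0.024) for miR-125b-1 and let-7a-2. For miR-125a and let-7e it was -0.047 with an interval of -0.11 to 0.010, which was not detectable at this depth. The let-7 mate had no common place, lying above miR-99a by 0.12 (0.091 to 0.16), below miR-99b by a difference of -0.074 (-0.13 to -0.019) and below miR-100 by one of -0.32 (-0.34 to -0.29).

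The miR-99b cluster was the most even, with the 3 differences between its mates from 0.047 to 0.12 in size. In the other clusters they ran from 0.053 to 0.37, but every pair there includes a precursor with a copy elsewhere. This contrast therefore cannot be read as a trait of the compact cluster, and its relation to the gaps was not tested. Over the 9 pairs of mates the median size was 0.12. The 180 other pairs of compared precursors that lie within 60 kb of each other, on either strand, had a median of 0.26 (quartiles 0.11 and 0.47), and the 46 of these with both precursors averaging 100 CPM or more had 0.19 (0.091 and 0.35). Many of the 180 pairs lie in a single region of chromosome 12, often at low levels. That region holds the largest difference, 1.44 between miR-376b and miR-381. The medians of the other pairs therefore weigh it heavily and are no measure of clustered precursors in general. Over all 24531 pairs of compared precursors the median was 0.26. Pairs share precursors and, for some, reads, so these values are a description with no test.

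**Figure D4:**
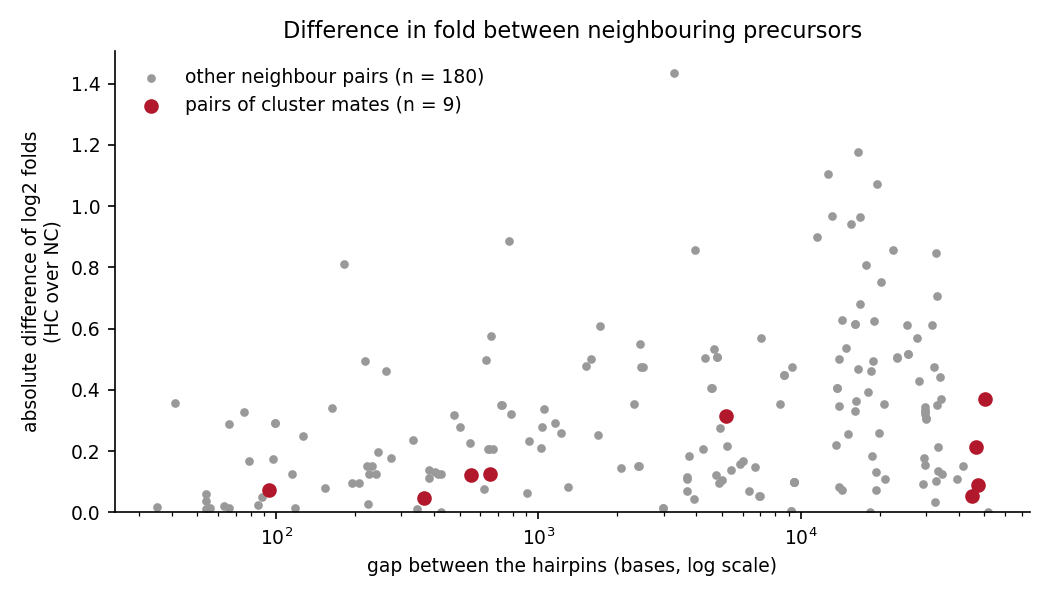
Absolute difference of the log2 folds of HC over NC between 2 neighbouring precursors (y axis) against the gap between their hairpins in bases (x axis, log scale), for 9 pairs of cluster mates (red) and 180 other pairs of compared precursors (grey). The cluster mates range from 0.047 to 0.37, and the other pairs reach 1.44.

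Summed over its mates, the miR-99a cluster stood at 4130 CPM in HC and 3760 CPM in NC, a log2 fold of 0.14 (0.12 to 0.15). The miR-99b cluster summed to 2750 CPM in HC and 2959 CPM in NC (-0.11, -0.12 to -0.093), and the miR-100 cluster to 4090 CPM in HC and 3919 CPM in NC (0.062, 0.051 to 0.072). let-7 counts make up most of the first and last sums, so these follow let-7c and let-7a, including reads that may come from chromosomes 13 and 15. Across scalings the miR-99a cluster alone kept its sign.

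Between paralogs, miR-100 took 24.2% of the miR-99/100 family counts in HC (23.9 to 24.5%) and 19.8% in NC (19.5 to 20.0%), while miR-99b took 60.1% in HC and 64.8% in NC, and miR-99a 15.7% in HC and 15.4% in NC. The log2 fold of miR-99a was lower than that of miR-100 by a difference of -0.27 (-0.31 to -0.23), although their 5p products differ only by U16A. The family sum of 3053 CPM in HC and 2966 CPM in NC was nearly level, with a log2 fold of 0.042.

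Relatives outside the clusters went both ways. Of the 11 let-7 and miR-98 precursors elsewhere, 9 averaged 10 CPM or more, 4 with intervals above equality (39.6% of all compared) and 5 below (43.7%), and their median log2 fold was -0.13. Those above include let-7a-1 (0.019) and let-7c-2 (0.18). They share their 5p products with the members let-7a-2 and let-7c-1 and are not separate observations. The others above were let-7b and let-7d (0.16). The most abundant of the 9 were let-7f-1, at 8579 CPM in HC and 11660 CPM in NC (-0.44), and let-7f-2, at 8894 CPM in HC and 12185 CPM in NC (-0.45), which share their 5p product. let-7b was at the other extreme, at 676 CPM in HC and 564 CPM in NC (0.26). let-7j lay below 10 CPM, and let-7k had 0 counts in HC and 2 in NC, too few for a fold. In level, let-7f thus exceeded every let-7 member of the clusters in both libraries. miR-351, a miRNA of the miR-125 seed family on the X chromosome, had 124 CPM in HC and 137 CPM in NC (-0.15, -0.21 to -0.090), below all 3 miR-125 members in level.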

How the data were processed

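The authors deposited raw counts of reads for each miRNA precursor, both arms of a hairpin together. CASAVA 1.8.2, TopHat2 2.0.10, HTSeq 0.5.4 and the mm10 build are listed in the submitters' processing notes. Trimming, the treatment of multiple alignments and the miRNA annotation used are not stated in the sources used here. A second deposited column, called RPM in the file headers, is a signal the authors scaled by 1 denominator per library (27222821 in HC, 32252170 in NC), which served only as an alternative scaling. Both denominators are below the counts over all precursors, and what they count is not stated in the sources used here. miR-451a and miR-451b share coordinates and had equal counts (15799 in HC, 16161 in NC), so reads there were counted at both entries. All 1187 precursors matched GENCODE M21 miRNA genes by coordinates.

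Groups follow the phenotype labels. Library sizes were scaled by TMM (edgeR 4.0.16, R 4.3.3), with no edgeR test. DESeq2 1.42.0 gave alternative size factors. Summary rows of the files stayed out; counts outside all precursors were 55.9% of listed counts in HC and 44.1% in NC. Log2 folds have exact conditional binomial (Clopper-Pearson) intervals, shares exact binomial ones, and differences of log2 folds intervals from the 4 counts on the log scale. The labels name no molecular identifiers, so reads need not be separate molecules, and intervals cover counting error only. A count of 0 allows up to 3 counts, 0.0918 CPM in HC and 0.0717 in NC. All 9 members are named, and of related lists the 2 most abundant and the extremes. Members and lists were chosen with earlier results of these data known. The calculation of the scaling and folds was checked on simulated counts. These had counting error only, with no shared reads and no spread between animals, so the check covers the arithmetic and not those features of the data.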

Additional observations from a re-analysis of the deposited data

Results flagged for a closer look

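Counts outside all miRNA precursors took no part in the comparisons and made up 55.9% of listed counts in HC, above the 44.1% in the NC control. No value here ties them to a member. Whether they include further alignments of reads counted at a member cannot be told, because the treatment of multiple alignments is not stated.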

How the results depend on the processing

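The median log2 fold of the members was -0.026 and the sums of the miR-99a, miR-99b and miR-100 clusters 0.14, -0.11 and 0.062 with TMM. With plain totals they were 0.11, 0.27, 0.028 and 0.20, and with the authors' denominators -0.14, 0.023, -0.22 and -0.051, because a scaling moves every fold by the same amount. With TMM run without the 10 most abundant precursors, the miR-99a cluster was 0.15 and the miR-100 cluster 0.072. With the counts of copies summed, the miR-100 cluster was 0.037, and with them halved, an alternative chosen after seeing the data, 0.10. Differences between cluster mates are free of the scaling. Halving cannot move them beyond rounding, since it divides the counts of both libraries alike. With copies summed they stayed within their counting intervals, but the summed copies had nearly equal folds to begin with. Neither treatment therefore tests whether shared reads alter these differences. Levels and cluster shares of the precursors with copies do move with these treatments, as given beside the results. In all alternatives 0 members reached 2-fold. DESeq2 size factors and TMM over precursors averaging 10 CPM or more left each of these values within its counting interval. No paired analysis was possible because each group held 1 library. For the same reason no library could be left out.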
